A study of Mus musculus with 7 samples.

Results

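The 10 genes described here encode transcription factors with which germ cells acquire or keep their identity: Prdm1, Prdm14, Tfap2c, Sall4, Sall1, Sohlh1, Sohlh2, Lhx8, Nobox and Figla. They were chosen by symbol from the 24739 genes of the RefSeq expression table, and all 10 symbols were present in it. RNA-Seq was performed on whole mouse testes at E14.5 (embryonic day 14.5), with 1 pair of testes per library and ribosomal RNA removed instead of poly-A selection. The libraries comprised 3 from wild-type (WT) embryos and 4 from Glis3 mutant embryos, all on a C57BL/6 background. The mutant is a global null strain in which a deletion removes an exon of Glis3 with flanking intron sequence, so GLIS3 function was missing from every tissue of the embryo and not only from germ cells. Litter, dissection date and sequencing batch are not given in the sources used here. The comparison asks whether the RNA levels of these factors differed between WT and Mutant testes at E14.5.

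Primordial germ cells arise from the early embryo under BMP signals, which induce Prdm1 and Prdm14. PRDM1 represses the somatic programme, PRDM14 restores pluripotency genes and starts the resetting of DNA methylation, and Tfap2c acts together with them. After germ cells have colonised the gonad, the same network keeps part of their pluripotent character for a limited time. A later set of factors, SOHLH1 and SOHLH2 in both sexes and LHX8, NOBOX and FIGLA in the ovary, directs the differentiation of spermatogonia and of oocytes in primordial follicles.

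The targeted gene was examined first. Glis3 was at 7.63, 6.89 and 2.91 FPKM (fragments per kilobase of transcript, relative to the mapped fragments of the library) in the 3 WT libraries and at 3.86, 3.26, 2.90 and 2.66 FPKM in the 4 Mutant libraries. The library labelled wild-type replicate 3 therefore fell between the Mutant values in FPKM. Reads on repeats inside Glis3, of which 3094 of 3099 were intronic, were compared as CPM. Throughout, CPM are reads relative to the repeat reads inside genes in that library, with TMM scaling, and not to the whole library. Glis3 was at 234, 184 and 136 CPM in WT and at 110, 104, 111 and 78.2 CPM in Mutant libraries. Here the groups did not overlap (log2 fold change -0.88, SE 0.16, adjusted p = 0.0827 in edgeR, exact permutation p = 0.0286). The library labelled wild-type replicate 3 was the lowest of the WT libraries. The readouts thus place this library differently, its genotype was not tested, and it is named by its label throughout. The same library also had a lower mean over 10 general germ cell genes (Dazl, Ddx4, Dppa3, Pou5f1, Dnd1, Tdrd1, Mael, Sycp3, Nanog and Utf1) than the other WT libraries: on the log2(FPKM + 0.5) scale the means were 5.98, 5.82 and 4.70 in WT and 4.81, 4.50, 4.58 and 4.37 in Mutant libraries. Markers of the testis were abundant: Amh, the hormone of Sertoli cells, was at 99.8 to 200.1 FPKM. The 10 fetal Leydig cell markers had higher Mutant means in every case, 6 of them with no overlap between the groups (beside 7.31% of all genes tested), and their summed level was 1902 to 3026 FPKM in WT and 2923 to 3536 FPKM in Mutant libraries. Skeletal muscle markers summed to between 3.12 and 40.8 FPKM and were high in libraries of both groups. Relative depth spanned 0.781 to 1 of that of wild-type replicate 1, and the part of these differences in the values below was not tested. Because whole testes were measured, fewer germ cells and less RNA per germ cell cannot be told apart from these libraries. The study counted germ cells per area at this stage and reported no difference between the genotypes, with a lower mean count in mutant testes. Its discussion, however, dates the first detected germ cell loss to the same stage.

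All 10 factors had a lower mean FPKM in Mutant than in WT testes, with Sohlh2 nearly equal and slightly higher in Mutant testes on the log2 scale. Of the 6 factors abundant enough to be tested (a mean of at least 0.5 FPKM), none passed an adjusted p of 0.05 in limma, which called 0.00715% of the 13988 genes tested. At an unadjusted p under 0.05, 4 of the 6 were lower in Mutant testes (Prdm1, Prdm14, Tfap2c and Sall4), beside 8.79% of all genes tested, and none was higher, beside 8.21%. The log2 fold change was negative for 5 of the 6, as it was for 47.9% of all genes tested. The median log2 fold change of the 6 was -0.70, beside 0.01 over all genes tested. The groups did not overlap for 2 of the 6, Tfap2c and Sall4, beside 7.59% of all genes tested, and for 3 of all 10 when Sall1 was counted, beside 5.70% of the 21236 genes with any value above 0. Wild-type replicate 1 had the highest value of the 7 libraries for 6 of the 10 factors.

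**Figure D1:**
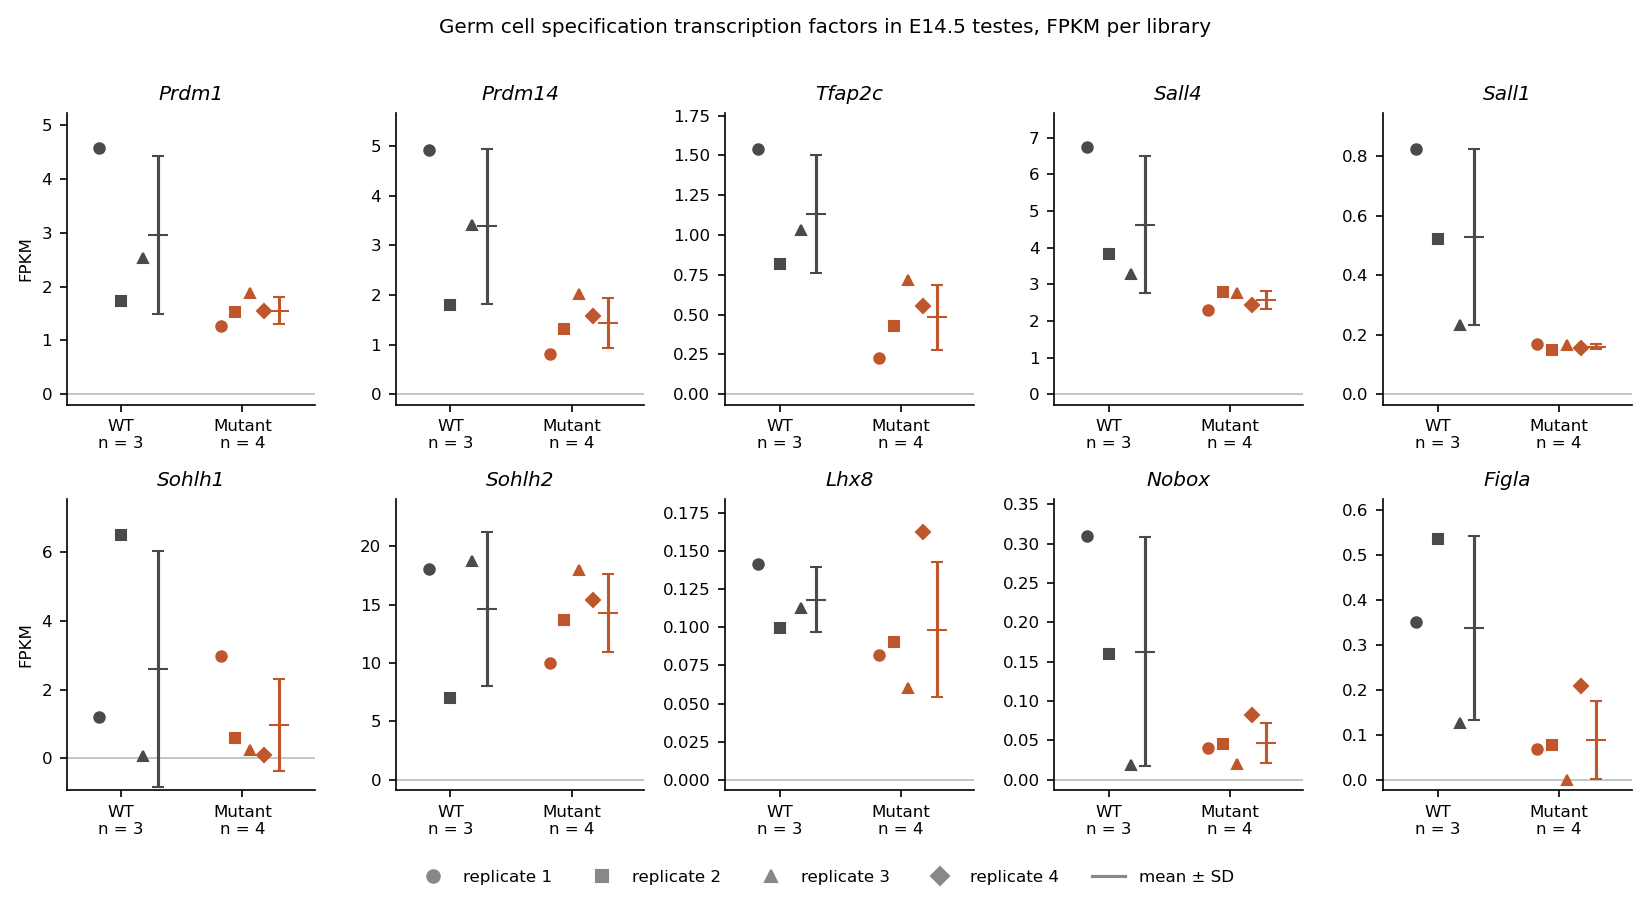
FPKM (y axes, each with its own scale) of the 10 factors in each library, with WT (n = 3) in grey and Mutant (n = 4) in orange. Marker shapes are the replicate numbers and bars are mean ± SD. The groups are separate for Tfap2c, Sall4 and Sall1 and overlap for the other 7 factors, and the Mutant libraries of Sall1 lie close together between 0.149 and 0.170 FPKM.

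The levels of the factors, which FPKM makes comparable between genes of different length, spanned a wide range. Sohlh2 had the highest mean over the 7 libraries, 14.4 FPKM, and lay above Sall4 (3.45 FPKM) in 7 of 7 libraries. Sall4 exceeded Prdm14 (2.27 FPKM) in 6 of 7 libraries, whereas Prdm14 exceeded Prdm1 (2.15 FPKM) in 5 of 7 and Sohlh1 (1.67 FPKM) exceeded Tfap2c (0.761 FPKM) in 3 of 7, so these neighbours were not separated. Tfap2c lay above Sall1 (0.317 FPKM) in 7 of 7 libraries. The 3 oocyte factors were lowest, with means of 0.195 FPKM for Figla, 0.107 FPKM for Lhx8 and 0.0965 FPKM for Nobox, and their order changed from library to library.

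Prdm1 (mm10 chr10:44437174-44458748, minus strand) encodes the repressor BLIMP1, which silences the somatic programme in newly specified germ cells. Its level was 4.58, 1.74 and 2.53 FPKM in WT testes and 1.26, 1.53, 1.89 and 1.54 FPKM in Mutant testes. Wild-type replicate 1 stood above all other libraries, and wild-type replicate 2 lay below Mutant replicate 3, so the groups overlapped. The mean was 2.95 ± 1.47 FPKM in WT (SD, n = 3) and 1.55 ± 0.256 FPKM in Mutant testes (SD, n = 4). On the log2(FPKM + 0.5) scale the difference was -0.67 (SE 0.25, 95% interval -1.25 to -0.10), with an adjusted p of 0.244 in limma, and the two-sided exact permutation test over the 35 arrangements of the libraries gave p = 0.0571. The smallest p this permutation test can give is 0.0286.

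Prdm14 (chr1:13113428-13127163, minus strand) encodes a zinc finger protein that sustains pluripotency genes and limits DNA methylation in germ cells. It was measured at 4.92, 1.80 and 3.41 FPKM in WT testes and at 0.818, 1.32, 2.01 and 1.58 FPKM in Mutant testes. As for Prdm1, only wild-type replicate 2 lay inside the Mutant range. The Mutant mean, 1.43 ± 0.499 FPKM, was 42.4% of the WT mean of 3.38 ± 1.56 FPKM, and the log2 difference of -0.96 (SE 0.31, 95% interval -1.65 to -0.26) was the largest in size among the 6 tested factors. It did not pass the adjusted threshold in limma (adjusted p = 0.204), and the exact permutation test gave p = 0.0571.

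Tfap2c (chr2:172549593-172558621, plus strand) encodes AP-2 gamma, which acts with PRDM1 and PRDM14 in the specification network. Its level was 1.54, 0.819 and 1.03 FPKM in WT testes and 0.230, 0.430, 0.718 and 0.552 FPKM in Mutant testes, so that every WT library lay above every Mutant library. The gap between the groups was narrow, from 0.718 FPKM in Mutant replicate 3 to 0.819 FPKM in wild-type replicate 2. The means were 1.13 ± 0.370 and 0.482 ± 0.205 FPKM (SD, n = 3 and n = 4), a log2 difference of -0.73 (SE 0.21, 95% interval -1.22 to -0.24, adjusted p = 0.186 in limma). The exact permutation test reached its minimum, p = 0.0286, on FPKM and gave p = 0.0571 on the log2 scale.

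Prdm1, Prdm14 and Tfap2c followed each other closely over the 7 libraries. Prdm1 and Prdm14 ranked the libraries identically, from wild-type replicate 1 through the library labelled wild-type replicate 3, Mutant replicate 3, wild-type replicate 2, Mutant replicate 4 and Mutant replicate 2 to Mutant replicate 1. The order for Tfap2c differed from this only by an exchange of Mutant replicate 3 and wild-type replicate 2. The shared order thus placed Mutant replicate 1 lowest and Mutant replicate 3 highest among the Mutant libraries, a spread within the group that does not follow genotype. It also differed from the order of the 10 general germ cell genes, for which the library labelled wild-type replicate 3 lay below Mutant replicate 1.

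**Figure D2:**
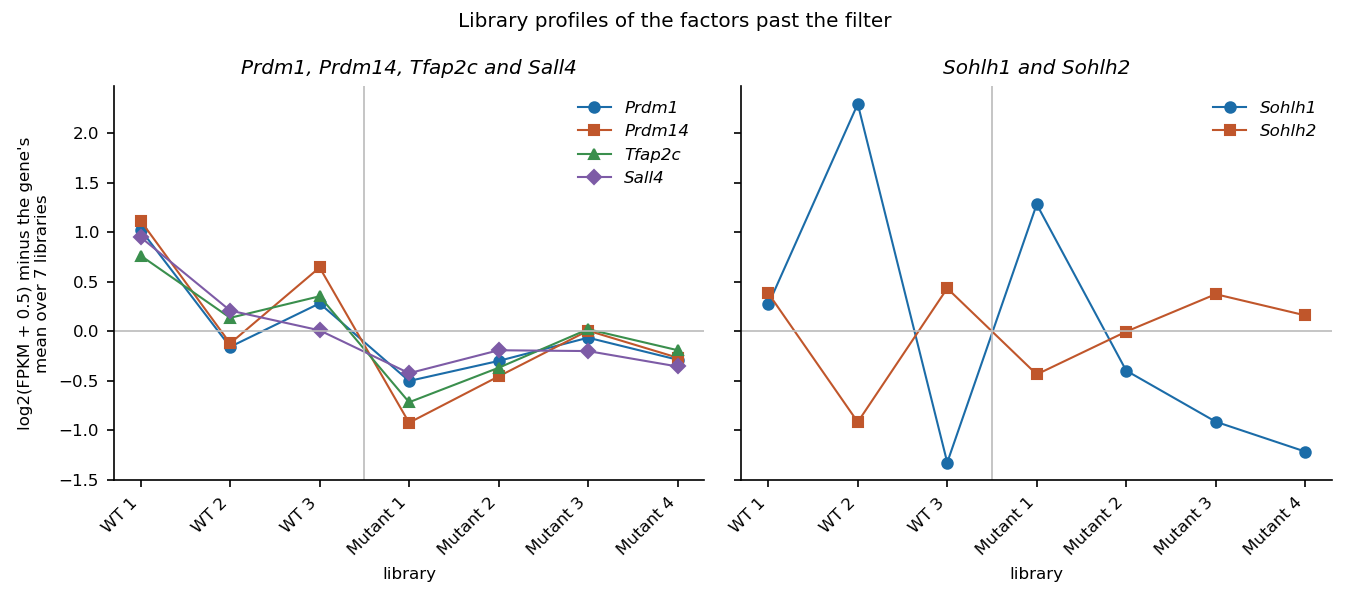
Values of log2(FPKM + 0.5) minus the gene's mean over the 7 libraries (y axis) for each library (x axis), with the WT libraries left of the vertical line. Prdm1, Prdm14 and Tfap2c share their highest values in wild-type replicate 1 and the library labelled wild-type replicate 3 and their minimum in Mutant replicate 1, whereas Sohlh1 is highest in wild-type replicate 2 and Mutant replicate 1, the libraries in which Sohlh2 is lowest.

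When all tested genes were ranked by the Pearson correlation of log2(FPKM + 0.5) with each factor over the 7 libraries, a few genes followed the factors closely. Among the genes most like Prdm14 were Ect2, which encodes a regulator of cytokinesis (r = 0.997), and C530005A16Rik (r = 0.988). Among those most like Tfap2c were Rbm44, an RNA-binding protein gene (r = 0.993), and E2f5 (r = 0.983). Rbm44 was at 16.5, 11.1 and 12.8 FPKM in WT and at 6.79, 8.19, 9.62 and 8.81 FPKM in Mutant testes, and its groups did not overlap. For Prdm1 the nearest genes were Grsf1 (r = 0.998), Fryl (r = 0.993) and Wdr34 (r = 0.991). These genes were selected as the highest of 13988 over only 7 libraries that share genotype differences, and r exceeded 0.95 for 30 genes with Prdm14, 33 with Tfap2c and 79 with Prdm1.

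To show the sequence around the start of the genes, the 250 bases upstream of the RefSeq start (GRCm38.p6) were taken where the promoter table held an entry, which was the case for 7 of the 10 factors and not for Prdm14, Tfap2c and Sall4. The letters CANNTG, the general E-box bound by basic helix-loop-helix (bHLH) proteins such as SOHLH1, SOHLH2 and FIGLA, are in capitals below, read 5′ to 3′ on the strand of the gene. The windows are chr10:44458749-44458998 for Prdm1, chr2:25847249-25847498 for Sohlh1 and chr3:55181794-55182043 for Sohlh2, and they are shown as the specification factor at the head of the network and the bHLH pair whose library profiles ran opposite to each other.
Prdm1: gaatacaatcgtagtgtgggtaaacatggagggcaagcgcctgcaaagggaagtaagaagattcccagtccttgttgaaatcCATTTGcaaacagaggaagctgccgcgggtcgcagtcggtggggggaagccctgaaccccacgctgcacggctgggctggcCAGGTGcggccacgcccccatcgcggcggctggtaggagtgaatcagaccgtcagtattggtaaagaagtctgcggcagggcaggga
Sohlh1: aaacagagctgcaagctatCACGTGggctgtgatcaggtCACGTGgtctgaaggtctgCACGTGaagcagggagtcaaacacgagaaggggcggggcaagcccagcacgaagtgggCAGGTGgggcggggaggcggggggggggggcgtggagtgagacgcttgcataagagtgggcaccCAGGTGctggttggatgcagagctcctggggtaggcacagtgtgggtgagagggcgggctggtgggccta
Sohlh2: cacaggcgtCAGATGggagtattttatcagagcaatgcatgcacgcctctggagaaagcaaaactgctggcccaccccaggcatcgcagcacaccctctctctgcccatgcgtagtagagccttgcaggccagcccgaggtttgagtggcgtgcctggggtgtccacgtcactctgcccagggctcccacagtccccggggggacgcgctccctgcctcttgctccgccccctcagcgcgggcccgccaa
The Sohlh1 window holds 5 E-boxes, 3 of which are CACGTG, a palindrome that is itself a form of CANNTG. Their first bases lie 231, 211 and 192 bases upstream of the start. In the longer windows of 300 bases, which add 50 bases after the start, CACGTG occurred in 7.15% of 32851 RefSeq promoter windows and at least 3 times in 0.0883%. CANNTG occurred in 72.3% of the windows, among them those of Prdm1 (2 matches) and Sohlh2 (1 match). Other letters searched on both strands were GCCNNNGGC, known for AP-2 proteins (16.6% of all windows, with 1 match in the Sohlh2 window and 1 in a window of Sall1), TAATTG, known for homeodomain proteins (8.0%, with 1 match in another window of Sall1), and TGGGGGGT, a G-rich stretch like those that GLI-related zinc fingers bind (1.53%, with no match in the windows of the 7 factors). A match is a description of the letters and says nothing about binding.

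Sall4 (chr2:168748332-168767201, minus strand) encodes a zinc finger protein needed in pluripotent cells and in undifferentiated germ cells. Its level was 6.75, 3.84 and 3.28 FPKM in WT testes and 2.30, 2.79, 2.77 and 2.43 FPKM in Mutant testes. Every WT library lay above the Mutant libraries, which differed little among themselves, and the library labelled wild-type replicate 3 was the WT library nearest to them. The means were 4.62 ± 1.87 and 2.57 ± 0.244 FPKM (SD, n = 3 and n = 4), with a log2 difference of -0.68 (SE 0.21, 95% interval -1.16 to -0.21), an adjusted p of 0.193 in limma and an exact permutation p of 0.0286. Without the library labelled wild-type replicate 3, the log2 difference was -0.87 and the adjusted p 0.0493, so that Sall4 was then called, beside 3.99% of all genes called lower. Usp7 (r = 0.993), Plekhf2 (r = 0.993) and Dhx37 (r = 0.992) were the genes most like it over the 7 libraries, and 183 genes had an r above 0.95.

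Sall1 (chr8:89027243-89044162, minus strand), a relative of Sall4 known for its role in kidney development, was under the filter. Its values were 0.825, 0.521 and 0.234 FPKM in WT and 0.170, 0.149, 0.166 and 0.156 FPKM in Mutant testes. The Mutant libraries were nearly alike, at a mean of 0.160 ± 0.00964 FPKM, and the WT libraries, at 0.527 ± 0.296 FPKM, all lay above them (exact permutation p = 0.0286). Among markers of mesonephric and kidney tissue, 3 of the 5 tested had lower Mutant means, and the 10 markers summed to 10.005 to 12.9 FPKM in WT and 9.45 to 12.1 FPKM in Mutant libraries. Of the 5 tested markers only Lhx1, also used by spermatogonia, did not overlap between the groups, beside 7.59% of all genes tested that were lower without overlap. Its mean was 1.63 ± 0.680 FPKM in WT and 0.703 ± 0.152 FPKM in Mutant testes. The part of kidney tissue in the Sall1 values was not tested.

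Sohlh1 (chr2:25842997-25847248, minus strand) and Sohlh2 (chr3:55182044-55209957, plus strand) encode partner bHLH proteins that drive early spermatogonial and oocyte differentiation. Sohlh1 was at 1.22, 6.49 and 0.0673 FPKM in WT testes and at 2.96, 0.580, 0.255 and 0.112 FPKM in Mutant testes. Both the highest and the lowest value of the series were in libraries labelled WT, and they differed 96.5-fold. The means, 2.59 ± 3.43 FPKM in WT and 0.977 ± 1.34 FPKM in Mutant testes, had SDs larger than themselves, and no difference between genotypes could be resolved (log2 difference -0.73, SE 0.85, 95% interval -2.67 to 1.22, adjusted p = 0.699 in limma, exact permutation p = 0.543).

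Sohlh2 was the most abundant of the 10 factors, at 18.1, 7.04 and 18.7 FPKM in WT testes and 10.02, 13.7, 18.0 and 15.4 FPKM in Mutant testes. The lowest value was in wild-type replicate 2 and the next lowest in Mutant replicate 1, the libraries with the highest Sohlh1. The group means were 14.6 ± 6.57 and 14.3 ± 3.33 FPKM, and the log2 difference of 0.06 (SE 0.33, 95% interval -0.70 to 0.81, adjusted p = 0.945 in limma, exact permutation p = 0.886) left room for a change of either sign. The genes most like Sohlh1 were Dnmt3l, a cofactor of de novo DNA methylation (r = 0.986), Fthl17 (r = 0.986) and Fabp9 (r = 0.983). Dnmt3l was at 0.883, 7.35 and 0.0754 FPKM in WT and at 1.95, 0.424, 0.0813 and 0.0826 FPKM in Mutant testes, with the same libraries on top. The genes most like Sohlh2 were L1td1, expressed in pluripotent cells (r = 0.985), Snrpd3 (r = 0.980) and Alg6 (r = 0.974), and L1td1 was lowest in wild-type replicate 2, at 2.45 FPKM.

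The 3 oocyte factors were close to the limit of detection. Their FPKM values, scaled for depth, were divided by trial steps for each gene. The first step that brought all values of the gene within 0.25 of whole numbers was kept. These whole numbers are read below as estimated numbers of fragments. Lhx8 (chr3:154306294-154330560), a homeodomain factor of primordial follicles, was at 0.142, 0.0998 and 0.113 FPKM in WT and 0.0817, 0.0902, 0.0600 and 0.162 FPKM in Mutant testes, which corresponds to 8, 5, 6, 4, 4, 3 and 8 fragments in the same order. Its highest value was in Mutant replicate 4, and the groups overlapped (exact permutation p = 0.514).

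Nobox (chr6:43303674-43309554), an oocyte homeobox gene, was at 0.310, 0.159 and 0.0187 FPKM in WT and 0.0405, 0.0449, 0.0200 and 0.0819 FPKM in Mutant testes, or 18, 8, 1, 2, 2, 1 and 4 fragments. The library labelled wild-type replicate 3 had the lowest value of the series, and the exact permutation p was 0.2. Figla (chr6:86017191-86020996), the bHLH activator of zona pellucida genes, was at 0.350, 0.534 and 0.126 FPKM in WT and 0.0685, 0.0766, 0 and 0.208 FPKM in Mutant testes, or 6, 8, 2, 1, 1, 0 and 3 fragments. The value of 0 in Mutant replicate 3 allows up to 0.202 FPKM, the level of 3 fragments. Mutant replicate 4 lay above the library labelled wild-type replicate 3 for both genes, and Figla gave an exact permutation p of 0.0857. None of the 3 oocyte factors reached p < 0.05 in the exact permutation test. Their Mutant means were 83.5% (Lhx8), 28.8% (Nobox) and 26.2% (Figla) of the WT means. In the same order these rested on an estimated 19, 27 and 16 fragments in WT and 19, 9 and 5 in Mutant libraries.

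Reads on LINE, SINE and LTR repeats inside the genes gave a further readout from the same libraries, in counts. Repeat loci lying wholly within the span of 1 gene and of no other held reads for 7 of the 10 factors, and 3 of these, Prdm14, Sall4 and Sohlh2, had a mean of at least 10 reads. None of the 3 passed an adjusted p of 0.05 in edgeR, which called 0.00815% of 12267 genes, and 2 of the 3 were lower in Mutant testes at an unadjusted p under 0.05, beside 5.95% of all genes. The same 2 had negative log2 fold changes, as did 50.1% of all genes. Prdm14 held 105, 27 and 58 reads in WT and 24, 22, 41 and 32 reads in Mutant libraries, in all 309 reads on 23 loci. As CPM, this was 26.6, 9.17 and 17.1 CPM in WT and 8.08, 7.83, 14.4 and 10.6 CPM in Mutant libraries, and the groups overlapped through wild-type replicate 2, as they did in FPKM. The log2 fold change was -0.81 (SE 0.32, adjusted p = 0.330 in edgeR).

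Of the Prdm14 reads, 204 were on loci that overlap an exon in GENCODE M21, mainly a B3 element at chr1:13113816-13114003 near the 3′ end of the gene. This element held 54, 10 and 25 reads in WT and 9, 9, 23 and 10 reads in Mutant libraries, so most of the Prdm14 signal on repeats came from exonic sequence. The other 105 reads were intronic, with 5.29 ± 1.93 CPM in WT and 4.20 ± 1.42 CPM in Mutant libraries (SD, n = 3 and n = 4, exact permutation p = 0.4). Their difference was smaller than the spread between replicates.

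Sall4 held 28, 23 and 27 reads in WT and 9, 13, 12 and 20 reads in Mutant libraries, of which 121 of 132 were intronic. Scaled in the same way these were 7.10, 7.81 and 7.94 CPM in WT and 3.03, 4.63, 4.23 and 6.65 CPM in Mutant libraries, with no overlap between the groups, as for 5.25% of all genes in this comparison. The library labelled wild-type replicate 3 was the highest of the 7 here, whereas it was the lowest WT library in FPKM. The log2 fold change was -0.71 (SE 0.29, adjusted p = 0.340 in edgeR, exact permutation p = 0.0571). For the intronic reads alone the groups overlapped, since Mutant replicate 4 (6.32 CPM) lay above wild-type replicate 1 (6.08 CPM), with means of 6.84 ± 0.784 CPM in WT and 4.38 ± 1.52 CPM in Mutant libraries (SD, n = 3 and n = 4, exact permutation p = 0.0857). For Sohlh2, all 170 reads were intronic, with 9.88, 2.72 and 8.53 CPM in WT and 6.73, 6.76, 7.40 and 11.3 CPM in Mutant libraries. Wild-type replicate 2 was again the lowest library, and the log2 fold change was 0.16 (SE 0.36, adjusted p = 0.906 in edgeR). The remaining genes held few reads: 25 for Prdm1, 11 for Lhx8, 9 for Tfap2c and 2 for Figla.

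**Figure D3:**
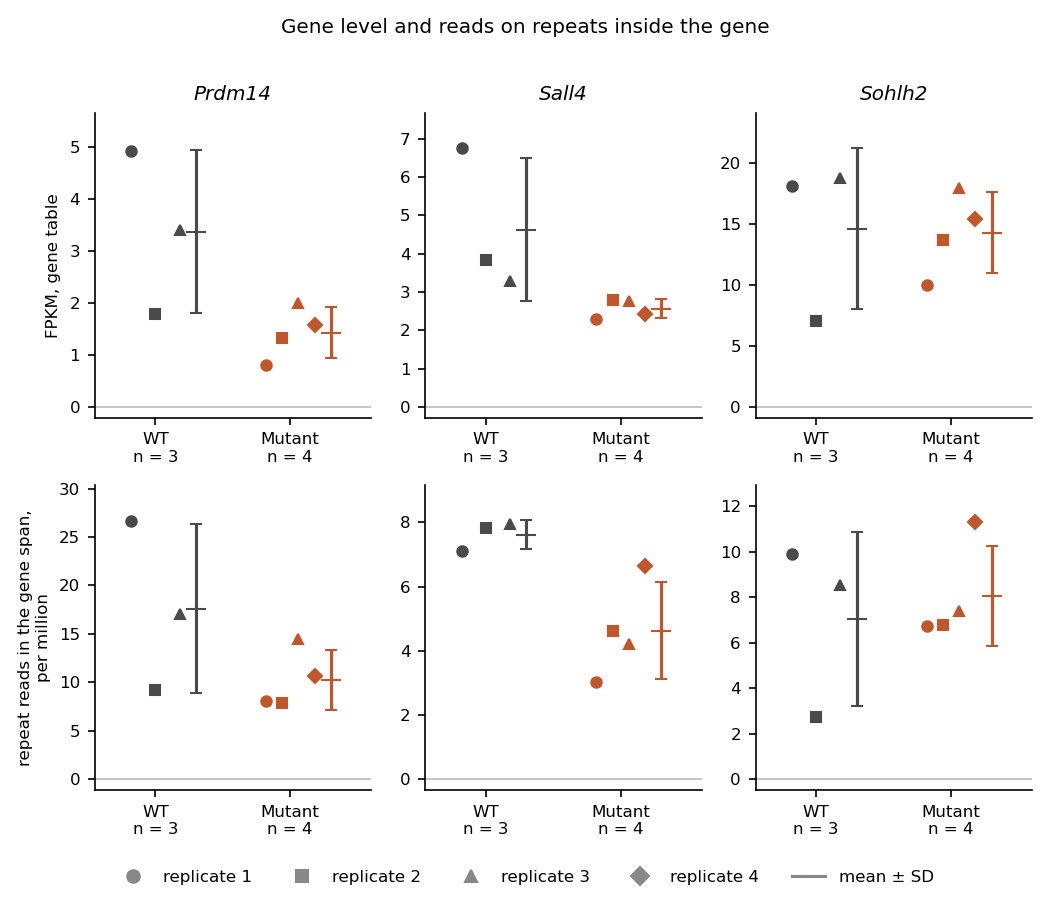
FPKM (top row) and reads on repeats inside the gene in CPM (bottom row) of Prdm14, Sall4 and Sohlh2 in each WT (grey, n = 3) and Mutant (orange, n = 4) library, with mean ± SD. Wild-type replicate 2 is the lowest WT library for Prdm14 and Sohlh2 in both rows, and the Sall4 groups are separate in both.

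Each factor was then set beside the mean of the 10 general germ cell genes in the same library, by subtracting this mean on the log2 scale. The list includes Ddx4, Tdrd1 and Mael, which the study reports as reduced in Mutant testes, so it does not measure germ cell number alone. The mean itself was 0.94 lower in Mutant than in WT testes (exact permutation p = 0.0571). Relative to it, the difference between Mutant and WT was 0.26 for Prdm1, -0.02 for Prdm14, 0.20 for Tfap2c, 0.25 for Sall4 and 0.21 for Sohlh1, with exact permutation p-values from 0.429 to 1. These 5 differences were smaller than the SD of the WT libraries. For Sohlh2 the relative difference was 0.99 (exact permutation p = 0.2), with values of -1.76, -2.91 and -0.43 in WT and -1.41, -0.67, -0.38 and -0.38 in Mutant libraries. The library labelled wild-type replicate 3 again lay among the Mutant libraries. For the factors under the filter the relative differences were 0.34 for Sall1, 0.89 for Lhx8 (exact permutation p = 0.0857), 0.68 for Nobox (p = 0.0571 by the same exact test) and 0.45 for Figla. All 4 exceeded the SDs of both groups and passed no test at 0.05. Lhx8 and Nobox lie under the pseudocount of 0.5 in every library, so their values mostly hold the difference of the reference itself.

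Genes that act around the factors were counted from lists. Inputs to specification (BMP ligands, receptors, SMADs and ID proteins) showed no direction: 7 of the 16 tested were lower and 9 higher, with a median of 0.06 on the log2 scale and none at an unadjusted p under 0.05. Id3 and Id1, the most abundant of them, were at 178 ± 52.5 and 80.5 ± 17.0 FPKM in WT and at 197 ± 5.59 and 92.5 ± 4.41 FPKM in Mutant testes. Acvr1, a BMP receptor gene, was the only 1 of the 16 whose groups did not overlap, beside 7.31% of all genes tested that were higher without overlap. It was at 6.86 ± 0.327 FPKM in WT and 7.59 ± 0.502 FPKM in Mutant testes.

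Among the 19 tested cofactors with which PRDM1, PRDM14 and the pluripotency network work, 15 were lower and 4 higher in Mutant testes, and 6 were lower with no overlap between the groups, beside 7.59% of all genes tested. Their median was -0.10 and none passed the adjusted threshold in limma. Lin28b, an inhibitor of let-7 microRNA maturation, was at 3.49, 3.46 and 2.44 FPKM in WT and 1.83, 1.94, 1.86 and 2.15 FPKM in Mutant testes (log2 difference -0.56, SE 0.13, adjusted p = 0.168 in limma). Prmt5, the arginine methyltransferase that binds BLIMP1, was at 31.1 ± 3.17 FPKM in WT and 24.7 ± 2.36 FPKM in Mutant testes (log2 difference -0.33, adjusted p = 0.192 in limma). Ehmt2 and Kdm1a, which encode histone modifying enzymes, had log2 differences of -0.31 and -0.28 and groups that did not overlap. Hdac2 and Rbbp7, the most abundant cofactors, differed by -0.08 and -0.11.

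Relatives of the factors showed no common direction. Of the 13 other PRDM family genes, 7 were tested, 5 of them lower and 2 higher in Mutant testes. The groups did not overlap for 1 lower gene, Prdm4 (log2 difference -0.19), and for 1 higher gene, beside 7.59% and 7.31% of all genes tested. Sall2, the only other SALL gene past the filter, was at 9.33 ± 1.09 FPKM in WT and 8.63 ± 0.204 FPKM in Mutant testes, and its groups overlapped. No other AP-2 gene passed the filter, and Tfap4, a bHLH gene that shares only part of its name with them, was at 6.64 ± 1.29 and 6.46 ± 0.405 FPKM.

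In the spermatogonial list, 13 of the 15 tested genes were lower in Mutant testes, beside 47.9% of all genes tested, and 2 were higher. The groups did not overlap for 3 lower genes and 1 higher gene, beside 7.59% and 7.31% of all genes tested. The median log2 fold change was -0.27. Over left-out libraries it ranged from -0.33 without Mutant replicate 3 to -0.14 without wild-type replicate 1. Taf4b, a germ cell component of the basal transcription machinery, was at 7.47, 11.9 and 5.74 FPKM in WT and 5.40, 4.87, 5.24 and 5.26 FPKM in Mutant testes (log2 difference -0.58, adjusted p = 0.219 in limma). Stra8, the retinoic acid target that licenses meiosis, differed in the other direction, with 1.08, 0.601 and 0.0911 FPKM in WT and 2.06, 1.96, 1.40 and 1.98 FPKM in Mutant testes (log2 difference 1.21, SE 0.30, adjusted p = 0.170 in limma). Its lowest value was in the library labelled wild-type replicate 3. In the oocyte list, 9 of 18 genes were tested, 8 of them lower in Mutant testes, beside 47.9% of all genes tested. Their median was -0.12. Of these 9, Pou5f1 is also among the general germ cell genes, and Taf4b and Kit are also in the spermatogonial list. Tcl1, a coactivator of AKT kinases expressed in early embryos, was at 31.0, 15.6 and 18.2 FPKM in WT and 6.76, 6.87, 11.9 and 9.71 FPKM in Mutant testes (log2 difference -1.22, SE 0.26, adjusted p = 0.164 in limma). The 10 general germ cell genes were all lower, beside 47.9% of all genes tested, 3 of them (Ddx4, Utf1 and Dazl) with no overlap, beside 7.59%, and their median was -0.96.

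**Figure D4:**
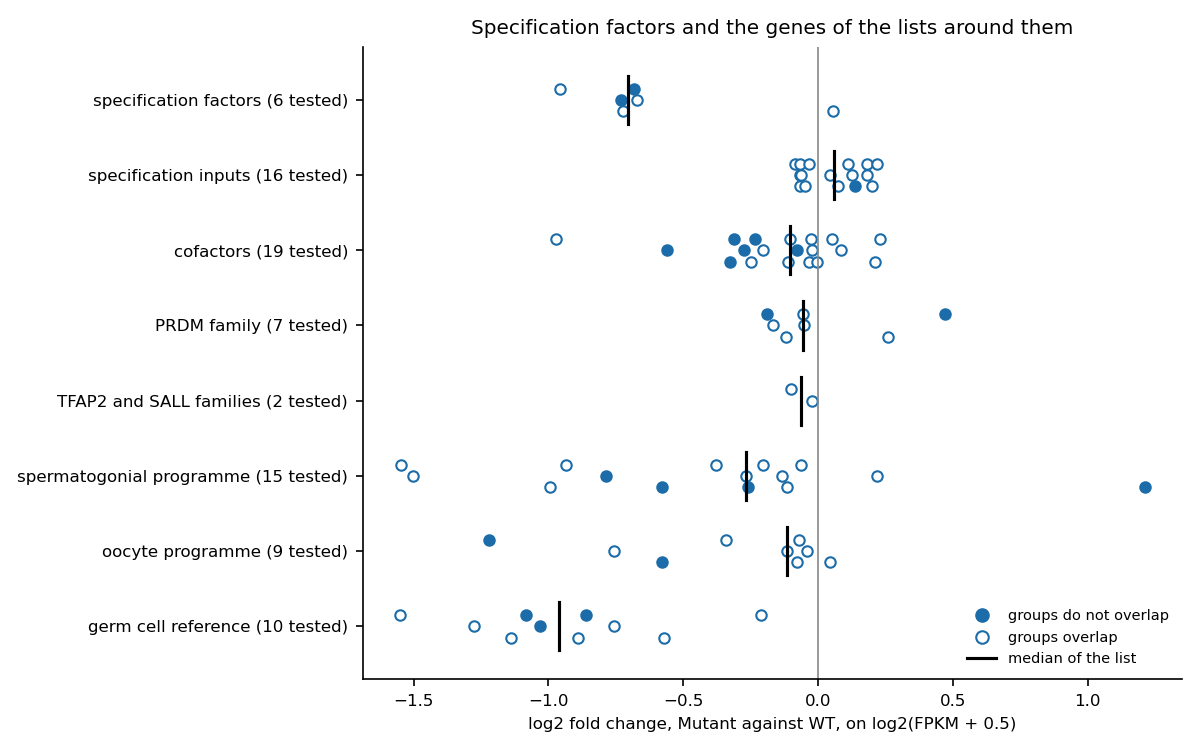
Log2 fold change of Mutant against WT (x axis) for the 6 tested factors and for the tested genes of the 7 lists around them (y axis). Filled points mark genes whose groups do not overlap, open points those whose groups overlap, and black lines the medians. The factors have a median of -0.70, between the specification inputs at 0.06 and the general germ cell genes at -0.96.

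The libraries carried unequal weight in these values. With any single library removed, the log2 differences of Prdm1, Prdm14, Tfap2c and Sall4 stayed negative, from -0.94 to -0.35, -1.29 to -0.67, -0.87 to -0.56 and -0.87 to -0.40. Each of them was smallest without wild-type replicate 1. Sohlh1 gave -0.73 with all libraries but 0.22 without wild-type replicate 2, and Sohlh2 gave -0.38 without the same library, where limma called 0.0357% of all genes and none of the factors. Without the library labelled wild-type replicate 3, limma called 558 genes lower and 162 higher in Mutant testes, 3.99% and 1.16% of those tested. Sall4 was the only factor among them, together with 8 of the 10 general germ cell genes, and Prdm1, Prdm14 and Tfap2c had adjusted p-values of 0.195, 0.183 and 0.124.

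**Figure D5:**
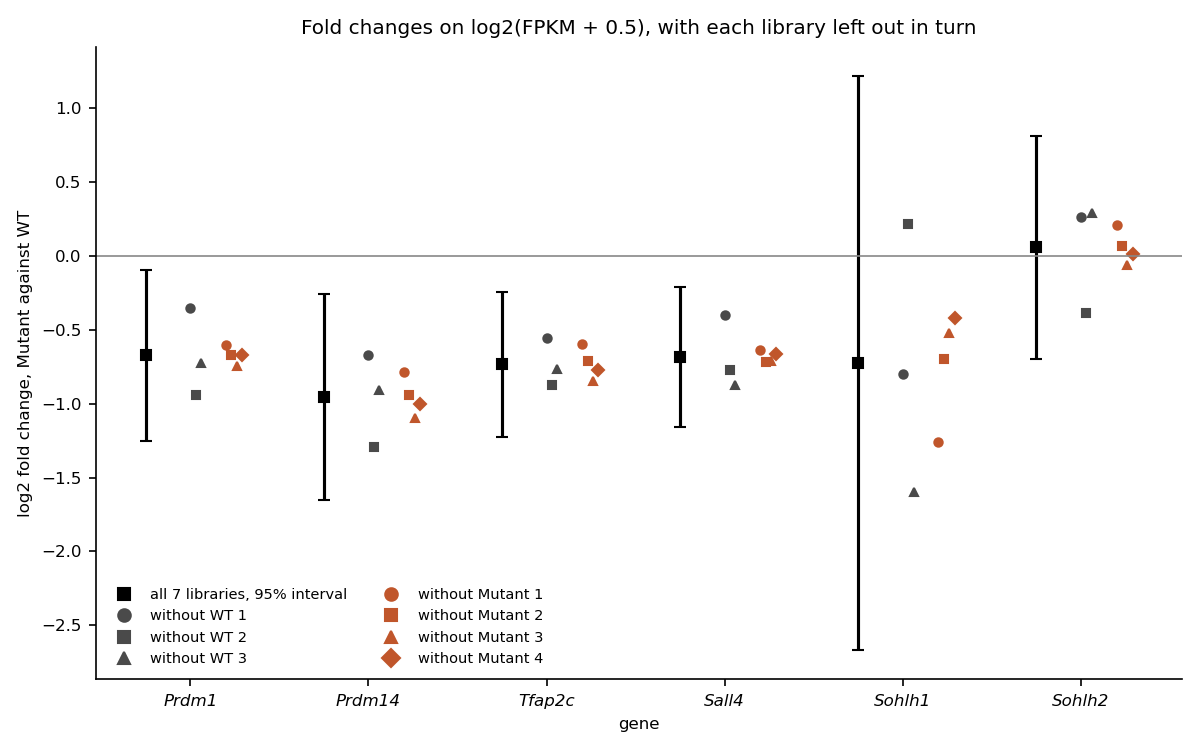
Log2 fold change of Mutant against WT on log2(FPKM + 0.5) (y axis) for the 6 tested factors (x axis), with all 7 libraries (black squares with 95% intervals) and with each library left out (grey for WT, orange for Mutant, shapes by replicate number). Prdm1, Prdm14, Tfap2c and Sall4 stay below 0 in every case, and Sohlh1 and Sohlh2 cross it.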

How the data were processed

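RNA-Seq libraries of E14.5 testes were grouped by the genotype in the sample labels (WT, n = 3, and Mutant, n = 4). Per the study's methods, the authors mapped quality-filtered reads to mm10 with TopHat2 2.0.12 without strand, and Cuffquant and Cuffnorm gave gene levels on RefSeq models. The deposited FPKM values include the scaling of that workflow, and the reads of overlapping or antisense genes cannot be told apart. For the repeat table, the authors counted uniquely mapped reads per RepeatMasker element with HTSeq, and the deposited counts are not normalized (3454317 to 4670830 per library). Both header lines lack a tab, so columns were taken by position. All sample columns were used.

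Log2(FPKM + 0.5) was tested in limma 3.58.1 (eBayes with a trend, R 4.3.3) for genes whose mean reached 0.5 FPKM, and p-values were adjusted over all 13988 genes (Benjamini-Hochberg, threshold 0.05). A fold change on this scale understates that of low genes. For a single value, mean FPKM was compared by a two-sided exact permutation test, with p-values not adjusted over the 10 factors. Repeat counts inside RefSeq gene spans were summed and tested with edgeR 4.0.16 (quasi-likelihood, TMM, mean of at least 10 reads), with DESeq2 1.42.0 as an alternative, and exons were taken from GENCODE M21. Tests were checked on simulated data. The SEs of repeat counts include the spread between replicates as edgeR estimates it. Promoter windows came from RefSeq (GRCm38.p6).

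The factors and lists were chosen with earlier results of these data known. Named genes are the 10 factors, Glis3, up to 4 genes per list with the largest differences among those whose groups do not overlap, the 2 most abundant of each list, and the 3 genes most correlated with each tested factor, and 2 genes that this rule names are not reported here. Lists of Sertoli, interstitial, endothelial, macrophage, ovarian and adrenal markers were also counted, and they had median log2 fold changes of 0.14, 0.18, -0.0021, 0.20, 0.12 and 0.37. Scripts were run in Python 3.11.15.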

Additional observations from a re-analysis of the deposited data

Results flagged for a closer look

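Among 13 sets of 4 Mutant values examined, 2 had 1 library standing apart by Dixon's ratio, the gap to the nearest library divided by the range (critical value 0.829 for 4 libraries). Chance alone flags about 1 set in 20. For Sohlh1 FPKM, Mutant replicate 1 (2.96 FPKM) stood apart from 0.580, 0.255 and 0.112 FPKM in the other Mutant libraries, with a ratio of 0.836. For Sohlh2 reads on repeats, Mutant replicate 4 (11.3 CPM) stood apart from 6.73, 6.76 and 7.40 CPM, with a ratio of 0.854.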

How the results depend on the processing

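The alternatives covered the pseudocount, the filter, the scaling, the trend, array weights, the replicate block, DESeq2 and each left-out library. Of 220 values of single factors under them, 200 kept their direction and their side of the threshold, 17 reversed and 3 passed the threshold (Sall4, Lhx8 and Nobox). The cause of a change was not tested where none is given.

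All reversals were in values that passed no test with all libraries. Over left-out libraries, the FPKM difference ranged from -1.60 to 0.22 for Sohlh1 (0.22 without wild-type replicate 2) and from -0.38 to 0.29 for Sohlh2 (-0.38 without wild-type replicate 2, -0.06 without Mutant replicate 3), and the repeat read difference of Sohlh2 from -0.19 to 0.49. Relative to the general germ cell genes, the range was -0.17 to 0.61 for Prdm1, -0.52 to 0.43 for Prdm14, -0.10 to 0.57 for Tfap2c and -0.26 to 0.99 for Sohlh1. Prdm14 was at 0.016 with Dazl and Ddx4 alone as the reference, and Tfap2c at -0.15 with a pseudocount of 0.1. With a pseudocount of 0.1, Sall1 was at -0.19 and Figla at -0.24.

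The count of factors past the threshold was 0 with all libraries and ranged from 0 to 1 over left-out libraries. Genes past the threshold in limma numbered 1 with all libraries, 4 without a filter, 3 after quantile normalization, 0 with the replicate block, and 1 to 720 over left-out libraries, with 720 without the library labelled wild-type replicate 3, 5 without wild-type replicate 2, and 2 without wild-type replicate 1 or Mutant replicate 3. For repeat reads, edgeR called 1 gene with all libraries, 47 without a filter, 0 with the replicate block and 0 to 138 over left-out libraries (138 and 21 without the library labelled wild-type replicate 3 and wild-type replicate 2), and DESeq2 called 48, none of them a factor. The pathway lists held 0 called genes, and 0 to 17 over left-out libraries (17 without the library labelled wild-type replicate 3). Without that library limma called 3.99% of all genes tested lower and 1.16% higher, and 8 of the 17 were general germ cell genes. With Dazl and Ddx4 as the reference, 2 factors passed an exact permutation p of 0.05, Lhx8 at 0.92 and Nobox at 0.72. Both lie under the pseudocount in every library, so this value mostly holds the change of the reference itself. The exact permutation test called 3 factors with all libraries and 2 on log2 values. The 3 were those whose groups did not overlap, beside 5.70% of the 21236 genes with any value above 0 that were lower without overlap. The test called 0 for every left-out library (range 0 to 0), where its smallest p is 0.0667 without a WT library and 0.1 without a Mutant library.

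The replicate numbers did not pair the libraries: deviations of same-numbered libraries from their group means correlated at 0.20, -0.18 and 0.23. With the replicate block, in which Mutant replicate 4 has no partner and adds nothing, adjusted p-values in limma of Prdm1, Prdm14, Tfap2c and Sall4 were 0.398, 0.353, 0.353 and 0.358. Depth limits Lhx8, Nobox and Figla, which rest on an estimated 38, 36 and 21 fragments in all.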
